A study of Mus musculus with 6 samples.

Results

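The integrated stress response was followed through 10 listed genes of the ATF4 pathway, found by symbol among the 52636 genes of the table of optic nerve expression values. They are the transcription factors Atf4, Atf5 and Ddit3, the feedback regulator Trib3, the glutathione-degrading enzyme Chac1, the amino acid genes Asns, Psat1, Phgdh and Slc3a2, and the secreted factor Gdf15. The data are 6 RNA libraries of mouse optic nerve. Of these, 3 are labelled mCherry, after a red fluorescent protein, with the treatment mCherry. The other 3 are labelled hND6, with the treatment Mutant human ND6T14484C. ND6 belongs to complex I of the respiratory chain, and its gene normally lies in the mitochondrial genome. A lentivirus with the mutant gene was injected into the eye, per the labels, but the same sentence stands beside both groups. What the mCherry eyes received is therefore known only from the word mCherry, given as group name and treatment. Strain, age, sex, the promoter of the vector, the time after injection and whether a library is 1 animal or a pool are not given in the sources used here, so p-values cover only how these libraries vary, and some of that variation may be technical.

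The integrated stress response begins when a stress kinase phosphorylates the translation initiation factor eIF2. Most protein synthesis then slows, while a few messages with upstream reading frames, among them Atf4, Atf5 and Ddit3, are translated better. ATF4 switches on genes for amino acid uptake, amino acid synthesis and tRNA charging, and in many cells mitochondrial damage sets the pathway off through the OMA1 and DELE1 proteins. Because much of the control of ATF4 is at translation, the level of the Atf4 transcript need not follow its activity, whereas transcripts of its targets such as Trib3, Chac1 and Asns are commonly used as readouts.

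ATF4 binds as a dimer to a composite element whose letters can be written TGATGNAAN. Both strands of the RefSeq promoter windows (GRCm38.p6, 250 bases before to 50 after each annotated start) were searched for it, and 3 of the 10 members held a match, 1 each. The matches are shown because these 3 genes are the classical target readouts of the pathway. They are printed 5′ to 3′ on the strand that reads TGATG, with the element in capitals.
Asns: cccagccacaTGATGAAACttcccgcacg
Chac1: ctggcaggagTGATGCAACggcagggaag
Trib3: cccgcccggcTGATGTAAAcctgagctaa
Each line holds the 9 bases of the element with 10 bases on either side, and the coordinates are those of the whole line. The Asns line is chr6:7693214-7693242, minus strand, and its element lies 23 to 15 bases before the annotated start, on the strand of the gene. The Chac1 line is chr2:119351038-119351066, minus strand, with its element 194 to 186 bases before the start on the opposite strand. The Trib3 line is chr2:152344029-152344057, plus strand, with its element 13 to 21 bases after the RefSeq start, on the opposite strand. By gene symbol, 1215 of 27025 (4.5%) had a window with the element. By window, it was in 1299 of 32851 (3.95%), and in 3 of the 13 windows of the members. The RefSeq starts are not always those of the gene positions given below. The Asns window (7693160 to 7693459) lies wholly before the listed gene. The Trib3 element also lies before the listed gene, which starts at 152344032 on the minus strand. The Slc3a2 window (8713848 to 8714147) lies inside the listed gene, so the region before the listed Slc3a2 start was not searched. A match is a description of these letters and not evidence of binding.

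None of the members passed the test between hND6 and mCherry. The test was limma on log2(FPKM + 0.5), where FPKM is reads scaled to exon length and to library size. It was run on the 16157 genes averaging at least 0.5 FPKM and adjusted over all of them with a threshold of 0.05. Of the 10 members 7 were tested. Trib3, Chac1 and Gdf15 fell below that filter. The count was 0 of 7 beside 0.0433% of all tested genes, or 7 genes, all of them higher in hND6. Of the 7, 5 (71.4%) lay higher in hND6, beside 48.6% of all tested genes, and 4 did when each library was scaled to the same summed FPKM. At an unadjusted p under 0.05 there were 2 of 7, Atf5 and Slc3a2, beside 15.2% of all tested genes (9.11% higher and 6.05% lower). That count was 0 of 7 at equal summed FPKM and 1 of 7 after removal of the trend that each library showed with gene span. Voom, limma's method for counts, was run on reads recovered from the values and called 0 of all tested genes, with 3 of 7 at an unadjusted p under 0.05. All 3 hND6 libraries lay above all 3 mCherry libraries for Atf5, Psat1 and Slc3a2, and the groups overlapped for the other 7 members. Among all tested genes 12.6% were separated in that direction and 10.2% in the other, where no member was. These separations are of the FPKM as deposited. Summed FPKM was lowest in mCherry 1 (365375) and ran from 417385 to 450685 in hND6. At equal summed FPKM mCherry 1 no longer lay below all hND6 libraries for Atf5, Psat1 or Slc3a2. The members are protein-coding genes that span 2 to 30 kb, and among the 7436 tested genes of that kind 19.6% were separated upward and 64.5% lay higher, with a median log2 fold change of 0.09 against -0.01 for all tested genes.

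**Figure D1:**
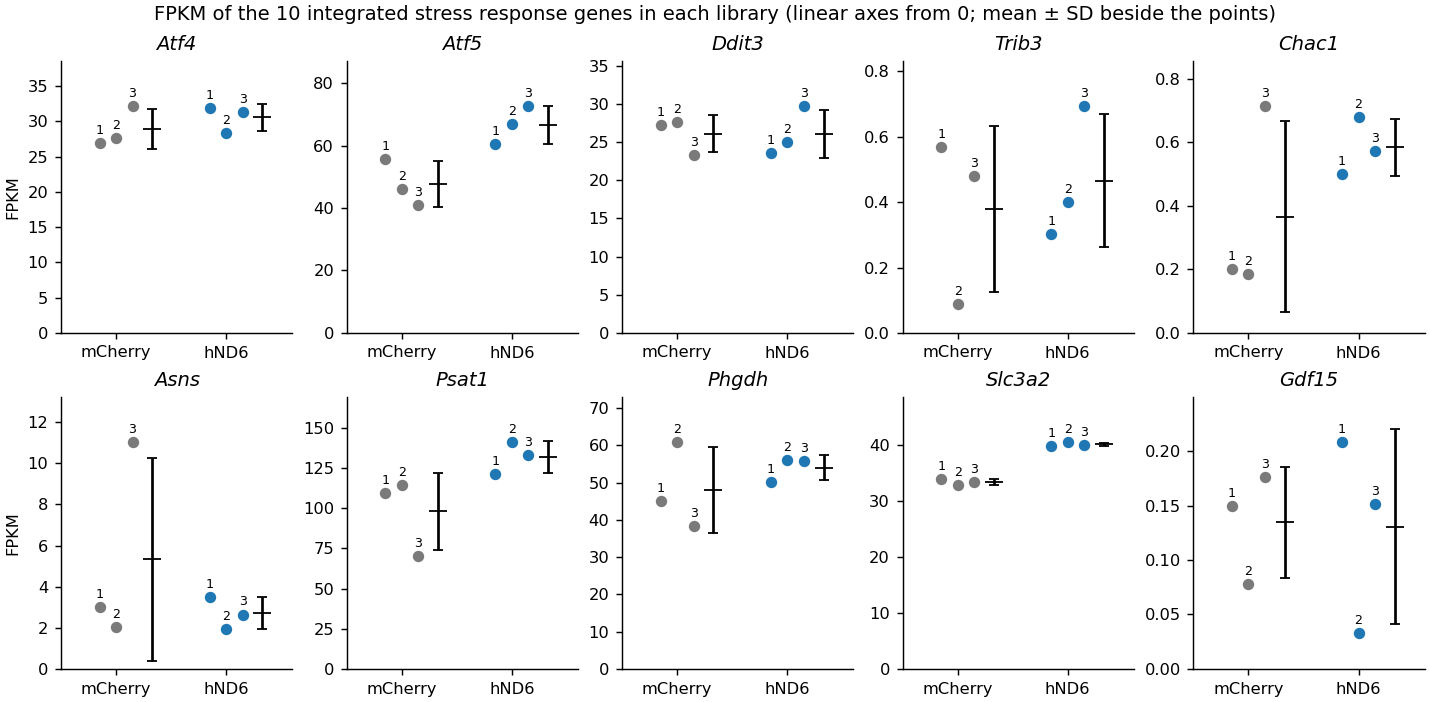
FPKM (vertical axes, linear from 0) of each of the 10 genes in the 3 mCherry (grey) and 3 hND6 (blue) libraries, with the replicate number above each point and the mean ± SD beside it. Atf5, Psat1 and Slc3a2 are the genes whose groups do not overlap, and Asns has 1 high library, mCherry 3, at 11.01 FPKM.

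On the leading principal component, with 46.9% of the variance over all tested genes, mCherry 3 lay far from mCherry 1 and 2. All 8 listed neuronal markers were highest in it, and second highest in hND6 1 (summed FPKM of 539 and 201, against 27.99 to 52.8 in the other 4 libraries). Reads assigned to genes ran from 20253637 in hND6 2 to 34758873 in mCherry 2. Markers of the labelled optic nerve were abundant. Mbp, a myelin protein gene of oligodendrocytes, stood at 1818 to 3009 FPKM, and 7 astrocyte genes led by Gfap and S100b summed to 1535 to 2510 FPKM. Summed markers did not overlap between groups for astrocytes (1535 to 2045 in mCherry, 2112 to 2510 in hND6), microglia (98.1 to 122 and 136 to 156), erythroid cells (179 to 467 and 1363 to 2602) and B and plasma cells (8.84 to 19.3 and 139.6 to 385). No marker of these 4 lists was at 0 in every library. The astrocyte sum rests mostly on Gfap and S100b. Of the 7 astrocyte genes 5 lay higher and 2 lower in hND6, and 3 were separated upward, Gfap, S100b and Gja1. The log2 fold change was -0.03 for Slc1a3 and for Slc1a2 and 0.003 for Aldh1l1, and the groups overlapped for Aqp4 (0.16). In such bulk samples more cells of a type and more RNA per cell cannot be told apart.

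Atf4, the activator that gives the pathway its name (chromosome 15 of mm10, 80255184 to 80257540), stood at 26.9, 27.6 and 32.1 FPKM in mCherry replicates 1 to 3 and at 32.0, 28.4 and 31.3 FPKM in hND6. The groups overlapped, and the highest value belonged to mCherry 3. Its log2 fold change was 0.08 ± 0.10 (SE, n = 3 each), with a 95% interval from -0.15 to 0.32 (limma adjusted p = 0.725). Its direction turned at equal summed FPKM (-0.06) and with the gene span trend removed (-0.17).

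Atf5, a relative of ATF4 that is linked to the mitochondrial unfolded protein response (chromosome 7, 44812256 to 44816658), stood at 55.6, 46.1 and 41.1 FPKM in mCherry and at 60.4, 67.0 and 72.6 FPKM in hND6. The lowest hND6 library was above the highest mCherry library by a small margin, and the mean was 40.1% higher (66.7 ± 6.10 against 47.6 ± 7.37 FPKM, SD, n = 3 each). The log2 fold change of 0.49 ± 0.13 (SE) was the highest among the tested members, though that of Asns was larger in size and negative, and it did not pass (limma adjusted p = 0.207). It was 0.34 when each library was scaled to the same summed FPKM and 0.30 after removal of the trend that each library showed with gene span. In the first of these settings the median of all tested genes moved from -0.01 to -0.14. The Atf5 gene overlaps Nup62 by 571 bases and Il4i1 by 263 bases on the opposite strand, and since the strand setting of the counting is not given, reads there cannot be told apart.

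Ddit3 encodes CHOP, a transcription factor that promotes cell death under lasting stress (chromosome 10, 127290774 to 127296288). It stood at 27.3, 27.7 and 23.3 FPKM in mCherry and at 23.6, 24.9 and 29.7 FPKM in hND6. The groups lay over each other, with the lowest and highest of the 6 values in mCherry 3 and hND6 3. The log2 fold change was -0.0046 ± 0.12 (SE), with a 95% interval from -0.29 to 0.28 (limma adjusted p = 0.989). Ddit3 shares 67 bases with Mars on the opposite strand.

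Trib3, a pseudokinase that is induced by ATF4 and CHOP and restrains them (chromosome 2, 152337422 to 152344032), was barely expressed, at 0.569, 0.0893 and 0.480 FPKM in mCherry and 0.303, 0.399 and 0.693 FPKM in hND6. These values rest on 6 to 35 reads a library, 66 in mCherry and 67 in hND6. Per library size the hND6 to mCherry ratio was 1.21, with an exact 95% binomial interval of 0.848 to 1.73 that covers counting error only. The libraries overlapped, and the lowest and highest were mCherry 2 and hND6 3.

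Chac1, which breaks down glutathione (chromosome 2, 119351229 to 119354381), stood at 0.201, 0.184 and 0.713 FPKM in mCherry and at 0.4995, 0.679 and 0.572 FPKM in hND6. Pooled, mCherry held 50 reads and hND6 held 70, which gave an hND6 to mCherry ratio of 1.67 after division by library size (95% counting interval 1.14 to 2.45). That interval leaves out the spread between libraries, and the highest of the 6 values was in mCherry 3, so the groups overlapped. Without a filter on low values limma gave a log2 fold change of 0.37 ± 0.26 (SE) for Chac1 (adjusted p = 0.698) and 0.16 ± 0.28 for Trib3 (adjusted p = 0.847).

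Asns, asparagine synthetase (chromosome 6, 7675169 to 7692871), was the member with the widest spread between libraries. It stood at 2.99, 2.02 and 11.01 FPKM in mCherry and at 3.52, 1.96 and 2.65 FPKM in hND6. A single library, mCherry 3, was high, and the other 5 lay between 1.96 and 3.52 FPKM. On the log2 scale hND6 differed by -0.57 ± 0.56 (SE), with adjusted p = 0.672 in limma, and this became 0.08 ± 0.27 without mCherry 3 (adjusted p = 0.886), so its direction rests on that library. The second highest value of Asns was in hND6 1, as it was for each of the 8 neuronal markers. The part of neuronal RNA in the Asns values was not tested.

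Phgdh and Psat1 carry out the first steps of serine synthesis from a glycolytic intermediate, a route that astrocytes use strongly in the central nervous system. Psat1 (chromosome 19, 15904678 to 15925059) was the most abundant member, at rank 268 of 16157 tested genes by mean FPKM. It stood at 109, 114 and 70.2 FPKM in mCherry and at 121, 141 and 133 FPKM in hND6. The groups did not overlap, and mCherry 3 was well below the other mCherry libraries. On the log2 scale hND6 differed by 0.46 ± 0.20 (SE), with adjusted p = 0.340 in limma, and this was 0.23 ± 0.09 without mCherry 3 (adjusted p = 0.212).

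Phgdh (chromosome 3, 98313170 to 98339990) stood at 45.0, 60.8 and 38.3 FPKM in mCherry and at 50.1, 56.1 and 55.7 FPKM in hND6. The highest and the lowest of these values were both in mCherry, so the groups overlapped. The log2 fold change was 0.19 ± 0.17 (SE, limma adjusted p = 0.633), and it was 0.04 without mCherry 3, 0.37 without mCherry 2 and 0.05 at equal summed FPKM. Its transcript has 8 processed pseudogene copies of at least 95% identity, of which Gm7901 (98.7% over 84.4% of the length) reached 4.90 FPKM, so reads may be split or dropped and the Phgdh level is uncertain. Both serine genes were lowest in mCherry 3, where the summed astrocyte markers and Mbp were also lowest. The astrocyte marker sum followed the same group order as Psat1, but only 3 of its 7 genes separated the groups. The part of astrocyte RNA in the Psat1 values was not tested. Psph, the last enzyme of the route, was expressed at 8.83 ± 0.831 FPKM in mCherry and 10.3 ± 1.06 FPKM in hND6 (limma adjusted p = 0.441).

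Slc3a2, the heavy chain shared by several amino acid exchangers (chromosome 19, 8706882 to 8723369), was the most even member. It stood at 34.0, 32.95 and 33.5 FPKM in mCherry and at 39.9, 40.5 and 40.1 FPKM in hND6. The spread within each group was far smaller than the gap between the groups. The mean was 19.97% higher in hND6 (40.2 ± 0.303 against 33.5 ± 0.512 FPKM, SD, n = 3 each). The log2 fold change of 0.26 ± 0.06 (SE) had a 95% interval from 0.11 to 0.41 and an adjusted p of 0.193 in limma, the smallest of the members. It ran from 0.25 to 0.27 when any 1 library was left out, was 0.21 with the gene span trend removed, and was 0.12 at equal summed FPKM (adjusted p = 0.558). Among partner light chains, which form the exchangers with it, Slc7a5 stood at 15.1 ± 1.57 FPKM in mCherry and 15.04 ± 0.936 FPKM in hND6. Slc7a11, the cystine carrier, stood at 20.2 ± 1.69 and 18.9 ± 6.61 FPKM, with the lowest value in hND6 3. Slc7a6 lay lower in all 3 hND6 libraries (4.81 ± 0.456 against 7.73 ± 0.506 FPKM, log2 fold change -0.64 ± 0.11, limma adjusted p = 0.150). These partners did not follow the order of Slc3a2.

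Gdf15, a stress hormone secreted by cells with mitochondrial damage (chromosome 8, 70629393 to 70632095), was close to the limit of detection. It stood at 0.149, 0.0781 and 0.176 FPKM in mCherry and at 0.208, 0.0327 and 0.151 FPKM in hND6, from 1 to 11 reads a library. Pooled, mCherry held 18 reads and hND6 held 17. The hND6 to mCherry ratio per library size was 1.13 (95% counting interval 0.545 to 2.31), and a difference inside that interval was not detectable at this depth. Fgf21, another hormone of mitochondrial stress, is listed at 0 in all 6 libraries.

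**Figure D2:**
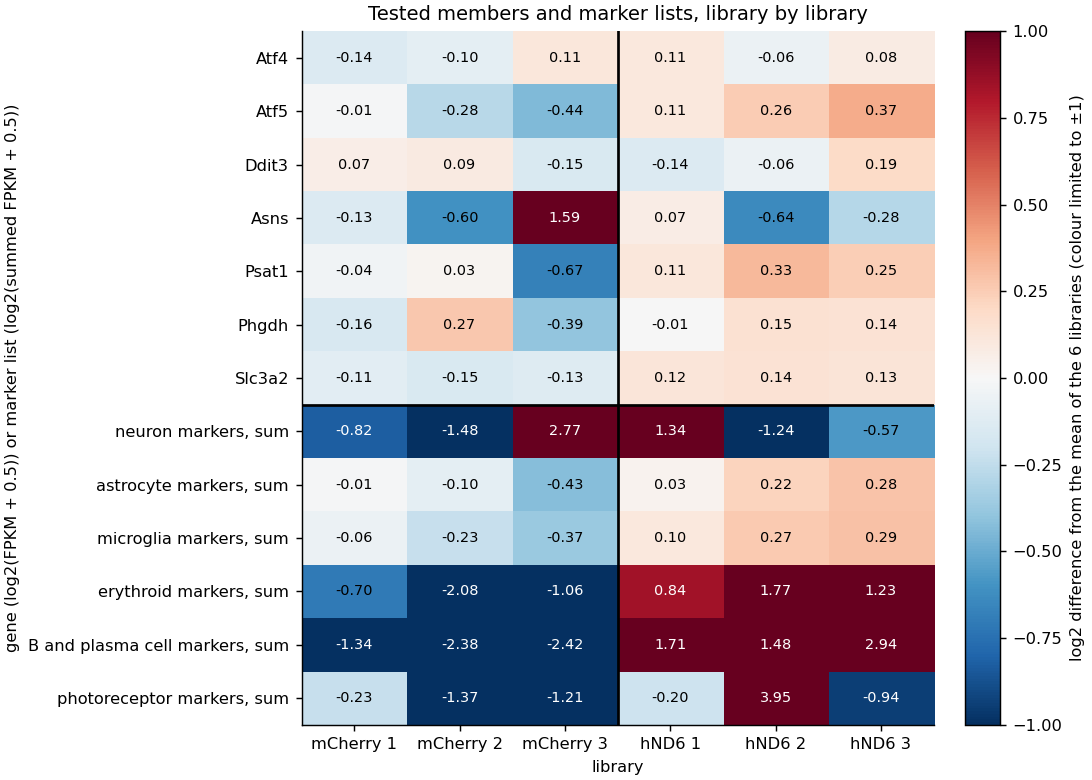
Log2 difference of each library (columns) from the mean of the 6 libraries for the 7 tested members, on log2(FPKM + 0.5), and for 6 summed marker lists, on log2(summed FPKM + 0.5); colour is limited to ±1 and each value is printed. Slc3a2 is between -0.15 and -0.11 in mCherry and between 0.12 and 0.14 in hND6, while Asns is at 1.59 in mCherry 3, the library where neuron markers are at 2.77.

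By mean FPKM, a scale per length of exon, the order of the members was Psat1 (114.8), Atf5 (57.1), Phgdh (51.0), Slc3a2 (36.8), Atf4 (29.7), Ddit3 (26.1), Asns (4.02), Chac1 (0.475), Trib3 (0.422) and Gdf15 (0.132). Neighbours in this order had ranges over the 6 libraries that overlapped, except for Slc3a2 and Atf4, Ddit3 and Asns, and Asns and Chac1, where they did not. The 3 members with a composite element in the promoter window, Asns, Chac1 and Trib3, were among the 4 least expressed, and none of them separated the groups. The 3 members that did separate them in FPKM as deposited had no match in their windows, which says nothing on whether ATF4 acts on them.

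The wider pathway was read from a list of 90 other genes found in the table, of which 85 were tested. None passed in either direction in limma or in voom. In limma 12 of the 85 had an unadjusted p under 0.05, beside 15.2% of all tested genes (2450 of 16157). Of the 85 genes 55 lay higher and 30 lower in hND6, with a median log2 fold change of 0.06. The share of higher genes was 64.7%, beside 48.6% of all tested genes and 64.5% of the protein-coding genes spanning 2 to 30 kb. Groups did not overlap for 12 higher and 9 lower genes, or 24.7% of the list beside 22.8% of all tested genes. At equal summed FPKM 28 of the 85 lay higher and the median was -0.08 beside -0.14 for all genes, so the count of higher genes depends on the scaling.

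**Figure D3:**
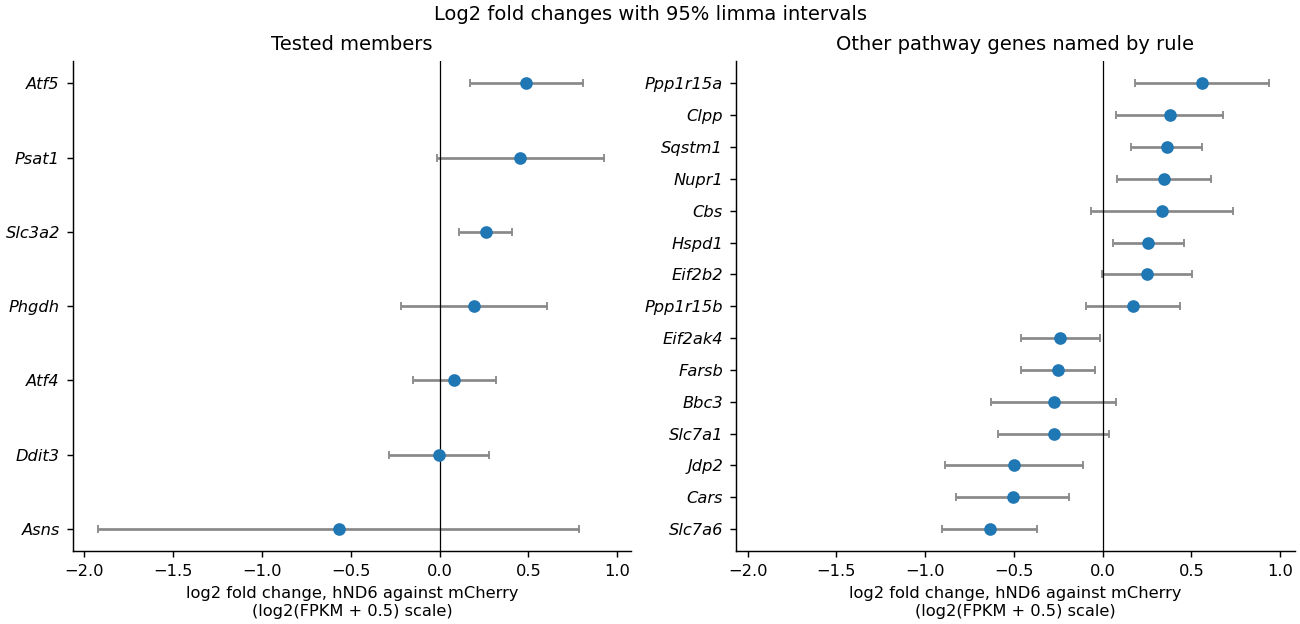
Log2 fold change of hND6 against mCherry on the log2(FPKM + 0.5) scale (points) with 95% limma intervals (bars) for the 7 tested members and 15 other pathway genes named by rule. Intervals of Atf5 and Slc3a2 lie above 0 before adjustment and that of Asns runs from -1.92 to 0.79; no gene shown passed the adjusted threshold.

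Of the upstream genes, 12 for the stress kinases, eIF2 and its exchange factor eIF2B were tested, 8 higher and 4 lower. Eif2ak4, the amino acid sensing kinase GCN2, stood at 11.6, 10.6 and 11.2 FPKM in mCherry and at 9.40, 10.04 and 8.66 FPKM in hND6, lower in all 3 (log2 fold change -0.24 ± 0.09, limma adjusted p = 0.305), and -0.12 with the gene span trend removed. Eif2ak1, the kinase HRI that receives the mitochondrial signal from DELE1, had a log2 fold change of 0.08 ± 0.08, and Eif2ak3, the endoplasmic reticulum kinase PERK, one of -0.06 ± 0.10. Eif2b2, an eIF2B subunit, lay higher in all 3 hND6 libraries (0.25 ± 0.10, adjusted p = 0.335), with 0.11 at equal summed FPKM and 0.12 with the gene span trend removed.

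Feedback genes were 6 higher and 2 lower. Ppp1r15a encodes GADD34, the inducible subunit of the phosphatase that resets eIF2. It stood at 5.77, 4.19 and 4.03 FPKM in mCherry and at 6.35, 7.29 and 7.48 FPKM in hND6. All 3 hND6 libraries were higher, by 0.56 ± 0.16 (SE) on the log2 scale (limma adjusted p = 0.216), and by 0.34 with the gene span trend removed. Its constitutive counterpart Ppp1r15b overlapped between groups (0.17 ± 0.11, adjusted p = 0.503), with 0.03 at equal summed FPKM. Among 8 transcription factors that work with ATF4, 5 lay higher and 3 lower. Nupr1, a stress-induced chromatin protein, stood at 52.1, 47.9 and 52.5 FPKM in mCherry and at 55.9, 69.5 and 69.7 FPKM in hND6. It lay higher in all 3 hND6 libraries (log2 fold change 0.35 ± 0.11, limma adjusted p = 0.251), with 0.10 once the gene span trend was removed. Cebpb, a partner of ATF4, was also separated upward (8.14 ± 2.22 against 5.06 ± 1.15 FPKM, adjusted p = 0.284). Jdp2, a repressor of the same leucine zipper class, was separated downward (22.2 ± 1.91 against 31.9 ± 6.35 FPKM, adjusted p = 0.255). Atf3, an early stress factor induced by ATF4, ranged from 3.96 to 16.4 FPKM within mCherry and from 6.08 to 15.6 FPKM within hND6, so the groups overlapped.

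Of 12 tested genes of amino acid synthesis and folate-linked carbon metabolism, 7 lay higher and 5 lower. Cbs, of the route from homocysteine to cysteine, overlapped between groups (log2 fold change 0.34 ± 0.17, limma adjusted p = 0.390), with 0.20 at equal summed FPKM. The mitochondrial folate enzymes that commonly lead this response in muscle, Mthfd2 and Shmt2, stood at 7.52 ± 0.961 against 6.38 ± 0.705 FPKM and at 7.20 ± 0.796 against 6.68 ± 0.169 FPKM in hND6 and mCherry, and neither passed (adjusted p = 0.475 and 0.715).

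Amino acid transporters were 7 higher and 4 lower among 11, and the 2 that separated the groups, Slc7a6 and the cationic amino acid carrier Slc7a1, were both lower. These 2 were 18.2% of the list, beside 22.8% of all tested genes (10.2% separated downward). Slc7a1 stood at 4.52, 3.79 and 4.85 FPKM in mCherry and at 3.42, 3.39 and 3.74 FPKM in hND6 (log2 fold change -0.28 ± 0.13, limma adjusted p = 0.373), and -0.18 with the gene span trend removed. Of the 15 tRNA synthetases, which charge tRNAs and are broadly induced by ATF4, 9 stood above and 6 below mCherry, and the median log2 fold change was 0.04. The genes of smallest p were both lower: Cars, for cysteine, at 8.78 ± 1.27 against 12.6 ± 1.11 FPKM (adjusted p = 0.202), and Farsb, for phenylalanine, at 20.9 ± 1.62 against 24.9 ± 1.08 FPKM (adjusted p = 0.270). The log2 fold change of Farsb, -0.25, was -0.16 with the gene span trend removed. Aars and Yars, for alanine and tyrosine, were separated upward by 0.17 and 0.14 on the log2 scale (adjusted p = 0.351 and 0.399). At equal summed FPKM mCherry 1 no longer lay below all hND6 libraries for either gene. In that setting the median of all tested genes moved from -0.01 to -0.14.

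Other targets were 7 higher and 5 lower. Sqstm1, the autophagy receptor p62, stood at 94.1, 93.5 and 98.2 FPKM in mCherry and at 113, 126 and 129 FPKM in hND6. It lay higher in all 3 hND6 libraries by 0.36 ± 0.08 on the log2 scale (limma adjusted p = 0.178), and by 0.18 with quantile normalization. Bbc3, the death gene PUMA and a target of CHOP, lay lower in all 3 (3.06 ± 0.527 against 3.78 ± 0.092 FPKM, adjusted p = 0.420), by -0.28 on the log2 scale and by -0.16 without hND6 1. Map1lc3b, an autophagosome protein gene, is listed at 0 in all 6 libraries, and it lies wholly inside Gm20388 on the same strand in the gene table, so no level is read from it.

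The mitochondrial relay and its companions were 6 higher and 1 lower of 7. Oma1, the protease that releases the signal, stood at 18.4 ± 3.26 FPKM in mCherry and 16.8 ± 1.17 FPKM in hND6 (limma adjusted p = 0.740). Dele1, listed under its older name 0610009O20Rik, stood at 18.8, 20.2 and 19.3 FPKM in mCherry and at 20.2, 22.6 and 25.8 FPKM in hND6, separated by a narrow margin (0.22 ± 0.10, adjusted p = 0.369). For Dele1 mCherry 1 no longer lay below all hND6 libraries at equal summed FPKM. The chaperonin Hspd1 (31.2 ± 1.34 against 26.04 ± 1.86 FPKM, adjusted p = 0.256) and the matrix protease subunit Clpp (20.4 ± 0.750 against 15.7 ± 2.46 FPKM, adjusted p = 0.263) lay higher in all 3 hND6 libraries. On the log2 scale Hspd1 differed by 0.26, and by 0.11 at equal summed FPKM, and Clpp by 0.38, and by 0.22 with the gene span trend removed. Lonp1, the other large matrix protease, differed by 0.04 ± 0.09 on the log2 scale.

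**Figure D4:**
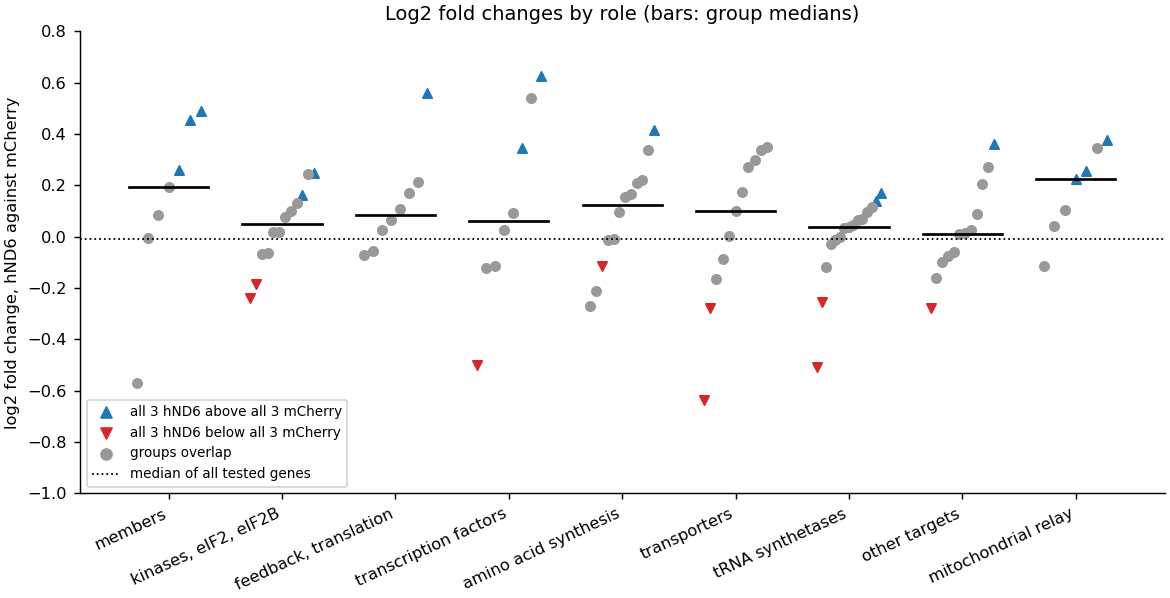
Log2 fold changes of hND6 against mCherry for the 7 tested members and the 85 tested genes of the wider pathway, by role; triangles mark genes whose groups do not overlap, black bars the median of each role and the dotted line the median of all tested genes. Transporters and tRNA synthetases hold the lowest values among the pathway genes, Slc7a6 at -0.64 and Cars at -0.51, and none of the genes drawn passed the adjusted threshold.

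The neighbouring branch of endoplasmic reticulum folding stress was read beside the members from a list of 22 genes, all tested. None passed in limma, and 7 of the 22 had an unadjusted p under 0.05, beside 15.2% of all tested genes. Voom called 0 of all tested genes. Of the 22 genes 18 lay higher, or 81.8% (median 0.24). That share was 48.6% among all tested genes and 64.5% among the protein-coding genes spanning 2 to 30 kb. Groups did not overlap for 9 higher and 2 lower genes, or 50% of the list. Beside this stood 22.8% of all tested genes and 24.7% of the protein-coding genes spanning 2 to 30 kb. The counts for this list are of the main scaling only. At equal summed FPKM, where the wider pathway went from 55 to 28 higher of 85, they were not read. The difference from the members was not tested. Library hND6 3 held the highest value of 16 of these 22 genes, among them the chaperone Hspa5 (81.0 FPKM against 49.5 to 60.7 in the other libraries) and Sdf2l1 (13.5 against 5.25 to 6.39). Among the 7 tested members hND6 3 was highest for Atf5 and Ddit3, and among the 85 pathway genes for 29. The summed B and plasma cell markers were also highest in hND6 3, at 385 FPKM, against 163 and 139.6 in hND6 1 and 2. The part of such cells in these values was not tested.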

How the data were processed

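Optic nerve RNA was made into libraries with a TruSeq Stranded Total RNA kit, per the labels' protocols. The authors deposited FPKM per gene, per the labels. Tools named without a role in the submitters' processing notes are STAR, HTSeq, Trim Galore and CASAVA 1.4, with the builds GRCm38 and mm10. The counting settings are not given in the sources used here. The deposited gene table gives positions, spans and exon lengths. All 6 tables of single libraries held the values of the combined table. FPKM times exon length fell within 0.1 of a whole number of reads for at least 99.995% of values above 0 in every library, so reads were recovered.

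Genes averaging 0.5 FPKM or more were tested on log2(FPKM + 0.5) with limma 3.58.1 in R 4.3.3, with an intensity trend, all 6 libraries, no covariate and Benjamini-Hochberg adjustment. Fold changes on this scale understate those of low genes. The fit was also run on simulated reads with the same relative spread in every gene and library. That run does not cover an outlying library such as mCherry 3. Near copies were searched with blastn 2.17.0 against GENCODE transcripts, at 95% identity over at least 20% of the transcript. Promoter windows come from RefSeq, GRCm38.p6, and all 10 members had one. The members and lists were chosen with earlier results of these data known. Besides the members, the rule named the 2 genes of smallest p of each role and the 2 most abundant markers of each cell type. A few results under this rule are not reported here. Other genes are named for their role and were chosen after their values were seen. Alternatives were other pseudocounts, filters and scalings, no trend, a robust fit, voom, a replicate block, removal of each library's trend with gene span, and leaving out libraries.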

Additional observations from a re-analysis of the deposited data

How the results depend on the processing

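Under the 19 alternatives none of the members and none of the wider pathway genes passed the threshold, and Atf5, Psat1, Phgdh and Slc3a2 kept a positive log2 fold change in each. Scaling to equal summed FPKM turned Atf4 to -0.0605 and moved the median of the tested members to 0.0476, from 0.19. Removing the trend with gene span turned Atf4 to -0.17. With single libraries left out, Ddit3 ran from -0.0999 to 0.0631, positive without mCherry 1 (0.03), mCherry 2 (0.04), hND6 1 (0.0631) or hND6 2 (0.02), and Asns from -1.01 to 0.0841, positive without mCherry 3. The number of all genes past the threshold as higher was 7, and 1 with no filter on low values, 0 with voom, 0 with the replicate block, 1 without mCherry 3 and hND6 1 together, and from 0 to 116 with single libraries left out (0 without mCherry 2, 116 without mCherry 3). As lower it was 0, and up to 15 without mCherry 3. The cause of these shifts was not tested. Of the same-numbered libraries only those numbered 2 deviated in the same direction (r = -0.416, 0.363 and -0.197 across genes for numbers 1 to 3). The highest r, 0.555, was between mCherry 3 and hND6 1, so the numbers are not read as pairs. Trib3, Chac1 and Gdf15 had too few reads to show differences smaller than their counting intervals.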
